A study of Mus musculus with 10 samples.

Results

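The major histocompatibility complex (MHC) class II presentation genes were followed in mouse esophagus. The set was chosen by gene name and holds 10 of the 54446 genes in the deposited table: the chain genes H2-Aa, H2-Ab1 and H2-Eb1, the peptide exchange genes H2-DMa, H2-DMb1 and H2-DMb2, their inhibitor genes H2-Oa and H2-Ob, the invariant chain gene Cd74 and the transactivator gene Ciita. All 10 were present in the table and all had reads in at least 1 library. The samples were esophagus of wild-type C57BL/6 mice in an experimental model of eosinophilic esophagitis, an allergic disease of the gullet. The model uses the hapten oxazolone (OXA), a small reactive molecule that sensitizes skin and mucosa. The comparison asks what differs between OXA-treated and vehicle-treated esophagus. There were 5 vehicle libraries, titled A1 to A5, and 5 OXA libraries, titled C1 and D1 to D4. The sources used here give no dose, time, age or sex and do not say whether each library is a separate mouse. The p-values therefore speak only to the spread between these libraries, which may be technical in part. The title letters go with treatment, so whatever A, C and D stand for cannot be told apart from OXA.

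MHC class II molecules are pairs of an alpha and a beta chain that display peptides from swallowed-up and endosomal proteins to CD4+ T cells. Dendritic cells, B cells and macrophages carry them constantly, and epithelial and other cells can acquire them under interferon gamma. New chain pairs are held by the invariant chain until cathepsins trim it to a fragment named CLIP, which the H2-DM heterodimer exchanges for a peptide. H2-DO, where present, inhibits H2-DM. CIITA, the product of Ciita, turns these genes on together without touching DNA itself: it docks on factors (RFX, CREB and NF-Y) bound to the X and Y boxes shared by their promoters. C57BL/6 mice carry the b haplotype, in which the alpha chain gene of the I-E molecule is defective, so the H2-Eb1 product lacks its usual partner and the I-A pair of H2-Aa and H2-Ab1 is the class II molecule at the cell surface.

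The promoter letters are shown first as a description of the genes and to set the duplicated gene H2-DMb2 beside its neighbour H2-DMb1. The RefSeq promoter table (GRCm38.p6) held 7 of the 10 genes. It gives 250 bases before to 50 after each gene's start, and the 60 bases printed for 6 of them hold the letters ATTGG, the Y box core, that are nearest to an X box or, for H2-DMb2, at the matching place. Each sequence is 5′ to 3′ on the gene's strand, with GNAAC (the start of the X box core) and ATTGG in capitals.
H2-Aa: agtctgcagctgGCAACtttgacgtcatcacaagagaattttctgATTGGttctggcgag
H2-Eb1: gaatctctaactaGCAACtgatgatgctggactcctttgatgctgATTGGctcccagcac
H2-DMb1: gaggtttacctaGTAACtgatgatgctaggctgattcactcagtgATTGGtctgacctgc
H2-DMb2: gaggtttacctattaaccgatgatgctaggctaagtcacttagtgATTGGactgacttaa
H2-Oa: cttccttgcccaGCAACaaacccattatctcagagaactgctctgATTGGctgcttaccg
H2-Ob: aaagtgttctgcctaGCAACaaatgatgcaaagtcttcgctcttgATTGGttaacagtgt

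The windows lie at chr17:34287857-34287916 (H2-Aa, minus strand), chr17:34305763-34305822 (H2-Eb1), chr17:34153085-34153144 (H2-DMb1), chr17:34145114-34145173 (H2-DMb2), chr17:34092291-34092350 (H2-Oa) and chr17:34238803-34238862 (H2-Ob), all on the plus strand except the first. In 5 of the 7 matched genes GNAAC preceded ATTGG on the gene's strand. The pair was absent from H2-DMb2 and from both windows of H2-DMa, which lie upstream of the start given for H2-DMa in the deposited table and are not printed. H2-DMa was among the genes that rose, and a link between the motif pair and the rise was not tested. The first letters of the 2 motifs were 33 bases apart in H2-Aa, H2-DMb1 and H2-Oa, 32 in H2-Eb1 and 30 in H2-Ob. ATTGG began 48 bases before the RefSeq start in H2-Aa, 59 in H2-Eb1, 61 in H2-DMb1, 90 in H2-DMb2, 43 in H2-Oa and 57 in H2-Ob. A pair of GNAAC and ATTGG 25 to 40 bases apart on the same strand, a spacing chosen after these sequences were seen, was found on either strand of 2.67% of the 32851 promoter windows of the same length. Alone, ATTGG was in 37.4% of windows, the letters GNAACNG in 42.3% and the longer GNAACNGNT in 9.94%, each searched on both strands. The longer motif was in H2-Eb1 and H2-DMb1. The H2-DMb1 and H2-DMb2 windows were identical at 51 of 60 bases (85%). Counted from 1 at the window's 5′ end, with the H2-DMb1 base first, they differed by G13T, T18C, G33A, T35G, C41T, T51A, C57T, G59A and C60A, and G13T lies in the GNAAC letters. A match here is a description of letters, not a measured binding site.

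**Figure D1:**
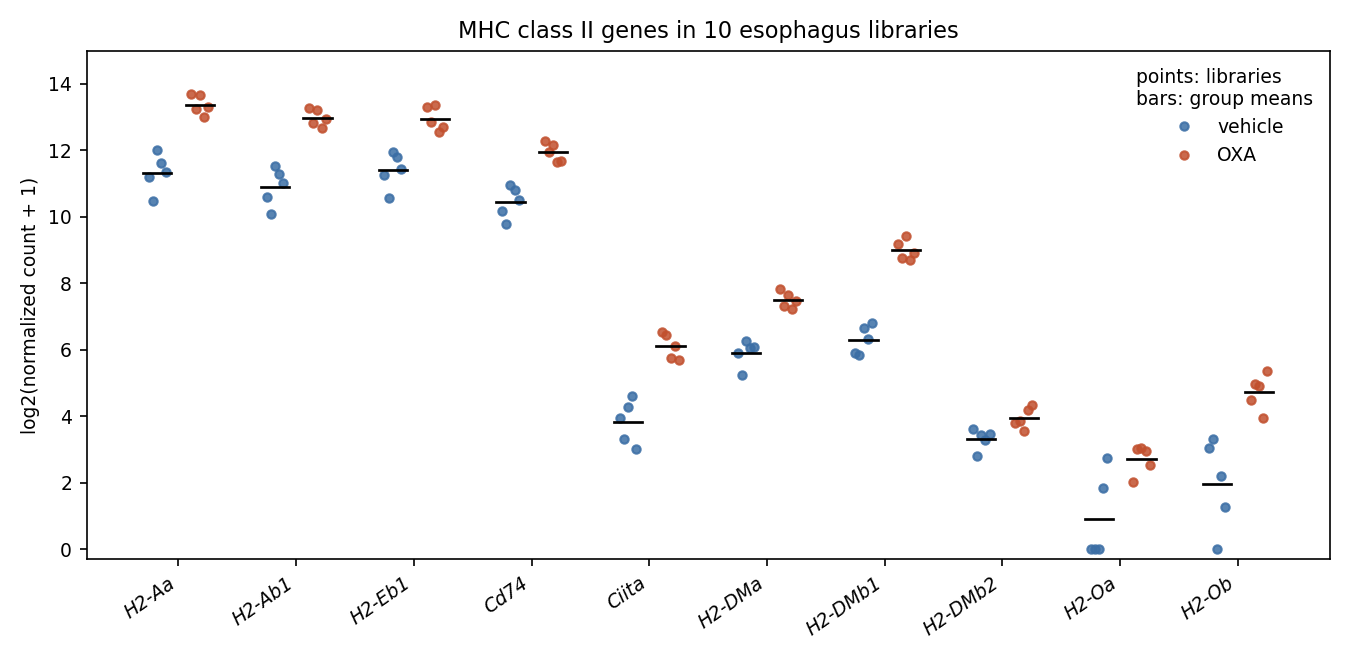
Level of each class II gene in every library, as log2(normalized count + 1), for 5 vehicle (blue) and 5 OXA (red) libraries; bars are group means. The OXA points lie above all vehicle points for 8 of the 10 genes and overlap them for H2-DMb2 and H2-Oa.

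Of the 10 class II genes 8 were higher in OXA esophagus and none was lower. The log2 changes ran from 1.49 (Cd74) to 2.70 (H2-DMb1), apart from 2.76 for H2-Ob, which rests on few reads. The called genes were H2-Aa, H2-Ab1, H2-Eb1, H2-DMa, H2-DMb1, H2-Ob, Cd74 and Ciita. H2-DMb2 did not pass the test, and H2-Oa had too few reads to enter it. The test was limma on log2(normalized count + 1) over the 14712 genes whose mean reached 5, with a Benjamini-Hochberg adjusted p under 0.05 as the call. A fold change on this scale understates the change of low genes. By the same rule 2309 genes, 15.7% of those tested, were higher in OXA and 2085, 14.2%, were lower. Scaling to library totals gave 2915 higher and 1545 lower and moved the median of all genes from -0.01 to 0.12. Of the 9 class II genes tested, 8 were called higher, 0 were called lower and the median change was 2.04. H2-Ob passed the filter through its OXA values (vehicle mean 4.25), so its call adds no support. Its log2 change was 3.07 with 0.5 added in place of 1 and 1.84 with 5 added. In 8 of the 10 genes every OXA library lay above every vehicle library, as it did for 12% of all tested genes. In bulk tissue, more cells that carry class II and more RNA in each such cell cannot be told apart.

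The 10 genes together took 0.137% ± 0.0447 (SD, n = 5) of the recovered reads in vehicle libraries and 0.521% ± 0.102 (SD, n = 5) in OXA libraries. The vehicle shares ran from 0.0786% (A2) to 0.186% (A3) and the OXA shares from 0.405% (D3) to 0.666% (C1), without overlap (exact two-sided permutation p = 0.00794, the smallest that 5 against 5 libraries can give). H2-Aa, H2-Ab1, H2-Eb1 and Cd74 held 97.6% of these reads. These are shares of reads and are not adjusted for transcript length. Libraries held 3675479 (D2) to 12108822 (A4) reads assigned to genes. A5, D2 and D4 were the shallowest, and 3 reads in D2 are worth 5.43 normalized counts, so the low genes H2-Oa, H2-Ob and H2-DMb2 rest on few reads there.

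H2-Aa and H2-Ab1 ranked the libraries in the same order and rose by about the same amount, and H2-Eb1 rose by less. H2-Aa, the I-A alpha chain (ENSMUSG00000036594.14, GRCm38 chr17:34282444-34287827), read 2361, 1424, 4164, 3165 and 2601 normalized counts in A1 to A5, and 13169.7, 9636, 12887, 8190.3 and 10054 in C1 and D1 to D4. A2 was the lowest vehicle library and A3 the highest, and the lowest OXA library, D3, was still 1.97 times A3. The mean went from 2743 ± 1013 to 10787 ± 2162 (SD, n = 5 each), a log2 change of 2.04 ± 0.25 (SE; limma adjusted p = 5.49e-05).

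H2-Ab1, the I-A beta chain (ENSMUSG00000073421.5, chr17:34263209-34269718), read 1535, 1076, 2971, 2495 and 2080.5 in A1 to A5 and 9836, 7193, 9599, 6527 and 7927 in C1 and D1 to D4. Its lowest and highest libraries in each group were those of H2-Aa, and its log2 change was 2.09 ± 0.25 (SE; limma adjusted p = 3.83e-05). H2-Eb1, the I-E beta chain (ENSMUSG00000060586.10, chr17:34305877-34316499), read 2439, 1529, 3997, 3543.5 and 2769 in vehicle and 10062, 7379, 10535, 6066 and 6746 in OXA libraries. The groups did not overlap, and the change was smaller, 1.55 ± 0.25 (SE; limma adjusted p = 4.48e-04).

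Whether the chains rose by equal amounts was asked with log2 ratios of summed normalized counts within each library, with 1 added to each sum. Library scaling cancels in them except for that added 1, which weighs most where counts are low. There were 12 such ratios, with p-values adjusted over the 12. H2-Aa to H2-Ab1 had a mean log2 ratio of 0.44 ± 0.12 in vehicle and 0.39 ± 0.05 in OXA (SD, n = 5 each), overlapping values with a difference of -0.05 ± 0.06 (SE; exact permutation adjusted p = 0.580). H2-Eb1 to H2-Ab1 was 0.67, 0.51, 0.43, 0.51 and 0.41 in A1 to A5 and 0.03, 0.04, 0.13, -0.11 and -0.23 in C1 and D1 to D4. Every OXA library had less H2-Eb1 for its H2-Ab1 than every vehicle library. The difference was -0.53 ± 0.08 (SE; exact permutation adjusted p = 0.0238). The other class II genes of the region gave little: H2-Eb2 had 0.206 ± 0.461 normalized counts in vehicle and 3.08 ± 2.65 in OXA (SD, n = 5 each), under the filter, and the I-E alpha pseudogene H2-Ea-ps had 0 reads in all 10 libraries, which at 3 reads allows up to 1.56 (A4) to 5.43 (D2) normalized counts.

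Cd74, the invariant chain (ENSMUSG00000024610.14, chr18:60803848-60812946), lies outside the MHC. It read 1151, 879.7, 1997, 1792 and 1469.5 normalized counts in A1 to A5 and 4974, 3940.0, 4562, 3206 and 3253 in C1 and D1 to D4. A2, A3, D3 and C1 were again the extremes. The means were 1458 ± 456 and 3987 ± 783 (SD, n = 5 each), a log2 change of 1.49 ± 0.22 (SE; limma adjusted p = 2.12e-04). Cd74 rose by less than the sum of the 3 chains, and its change was close to that of H2-Eb1 alone (1.55 ± 0.25), with which no ratio was tested. Its log2 ratio to the summed chains was -2.46, -2.19, -2.48, -2.36 and -2.34 in vehicle and -2.73, -2.62, -2.86, -2.70 and -2.93 in OXA libraries. No OXA ratio reached a vehicle ratio, and the difference was -0.40 ± 0.07 (SE; exact permutation adjusted p = 0.0238).

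**Figure D2:**
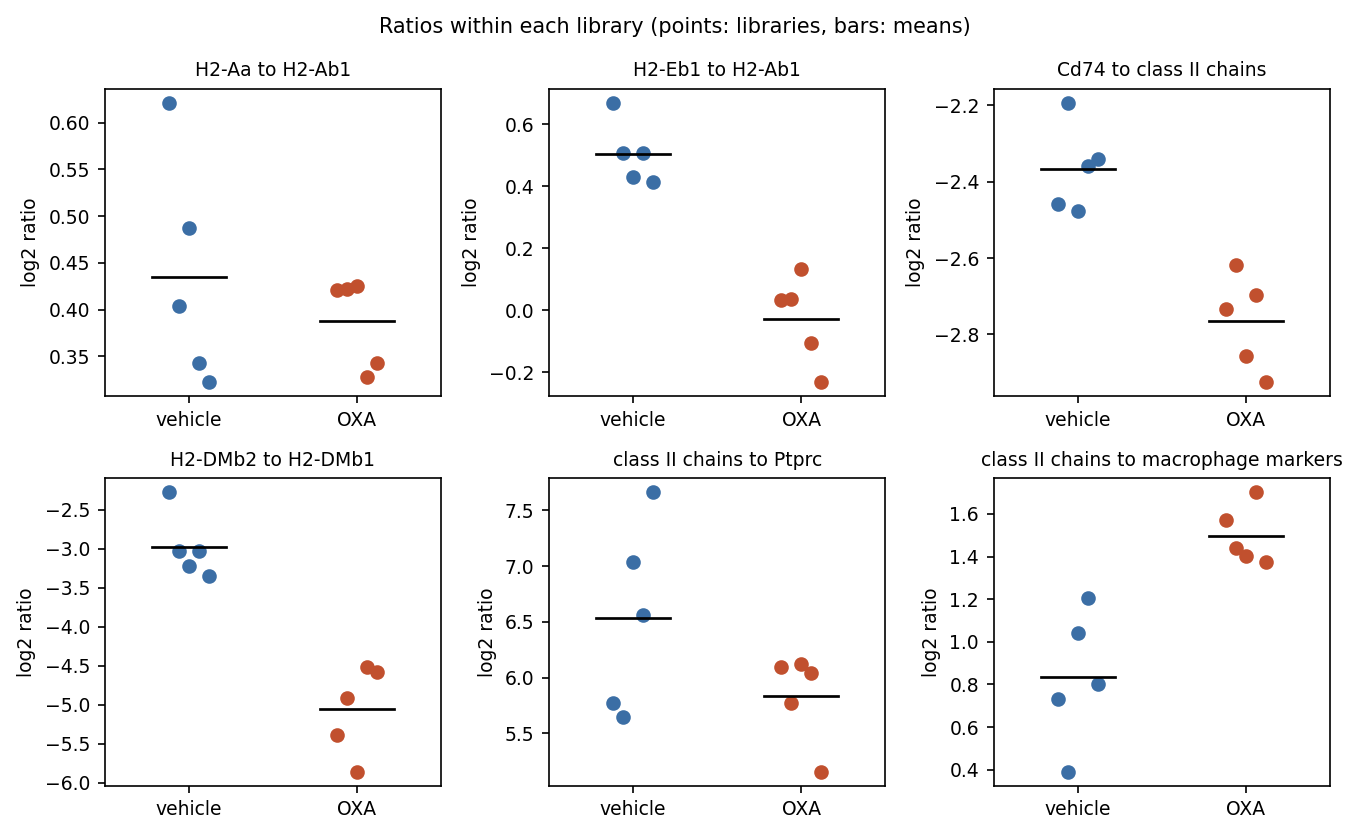
Log2 ratios within each library for 6 of the 12 ratios, vehicle (blue) against OXA (red), with bars at group means; each panel has its own axis. H2-Aa to H2-Ab1 and class II chains to Ptprc overlap between groups, H2-Eb1 to H2-Ab1, Cd74 to chains and H2-DMb2 to H2-DMb1 are lower in every OXA library, and chains to macrophage markers is higher in every OXA library.

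The peptide exchange factor H2-DM has 1 alpha gene, H2-DMa, and a pair of neighbouring beta genes. H2-DMa (ENSMUSG00000037649.9, chr17:34135182-34139401) read 58.5, 36.8, 76.0, 66.0 and 67.2 normalized counts in vehicle and 224, 157, 201, 150.4 and 177 in OXA libraries. The groups lay apart, with D3 at 1.98 times A3. The change was 1.59 ± 0.21 on the log2 scale (SE; limma adjusted p = 7.62e-05). H2-DMb1 (ENSMUSG00000079547.3, chr17:34153072-34160530) read 58.5, 56.2, 99.4, 78.9 and 112 in vehicle and 585, 435, 686, 418 and 480.5 in OXA libraries. D3, the lowest OXA library, held 3.74 times the highest vehicle library, A5. This was the widest gap between the groups among the 10 genes, with a log2 change of 2.70 ± 0.21 (SE; limma adjusted p = 1.20e-06).

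H2-DMb2 (ENSMUSG00000037548.14, chr17:34143307-34151853) read 11.3, 6.0, 9.74, 8.83 and 10.02 normalized counts in A1 to A5 and 13.0, 13.5, 10.9, 17.2 and 19.2 in C1 and D1 to D4. The groups touch: D2 lay below A1. The log2 change of 0.63 ± 0.32 (SE) did not pass (limma adjusted p = 0.160), though it did with limma without the mean-variance trend (adjusted p = 0.0401). Its log2 ratio to H2-DMb1 was -2.28, -3.03, -3.22, -3.02 and -3.35 in vehicle and -5.39, -4.91, -5.86, -4.52 and -4.58 in OXA libraries, apart in every library. The difference was -2.07 ± 0.32 (SE; exact permutation adjusted p = 0.0238). The beta genes share sequence beyond their promoters: 27.5% of the 50-base stretches in the last 500 bases of H2-DMb1 transcripts (283 of 1031) also occur in H2-DMb2 transcripts, whereas none of those in the last 500 bases of H2-DMb2 transcripts occur in H2-DMb1. Of the H2-DMb2 stretches, 13.6% (62 of 457) occur in transcripts of 164 genes outside the class II set. Reads from such stretches could be assigned to either gene, so the split between H2-DMb1 and H2-DMb2 and the low H2-DMb2 counts are uncertain to that degree. None of the other 8 genes shared such a stretch with another gene.

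H2-DO, the inhibitor of H2-DM, is known mainly from B cells and some dendritic cells. H2-Ob (ENSMUSG00000041538.15, chr17:34238903-34246207) read 7.19, 9.0, 0, 3.64 and 1.43 normalized counts in A1 to A5 and 21.4, 30.6, 29.0, 14.4 and 39.9 in C1 and D1 to D4. The vehicle values stand on 0 to 12 reads and the OXA values on 15 to 43. The groups did not overlap, with a log2 change of 2.76 ± 0.59 (SE; limma adjusted p = 0.00291). H2-Ob passed the filter through its OXA values, so this call adds no support. H2-Oa (ENSMUSG00000024334.8, chr17:34092340-34095534) read 0, 0, 0, 2.60 and 5.72 in vehicle and 3.05, 7.11, 7.24, 6.70 and 4.79 in OXA libraries, from at most 10 reads in any library. A5 lay above C1 and D4, and the means of 1.66 ± 2.53 and 5.78 ± 1.82 (SD, n = 5 each) gave an exact permutation p of 0.0317. That p was 0.0556 without A1, A2, A3, D1, D2 or D3. The ratio of the DO genes to the DM genes was -4.76 ± 1.63 in vehicle and -4.44 ± 0.49 in OXA (log2, SD, n = 5 each), and the difference was within the spread (0.32 ± 0.76 SE; exact permutation adjusted p = 0.849). It depended on A3, without which it was -0.38.

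Ciita (ENSMUSG00000022504.10, chr16:10480059-10528718) read 14.4, 9.0, 18.5, 23.4 and 7.15 normalized counts in A1 to A5 and 92.4, 86.0, 52.5, 68.0 and 51.1 in C1 and D1 to D4. The lowest OXA library, D4, was 2.19 times the highest vehicle library, A4. The means were 14.48 ± 6.69 and 70.0 ± 18.9 (SD, n = 5 each), a log2 change of 2.27 ± 0.33 (SE; limma adjusted p = 1.70e-04). Its ratio to the chains did not differ beyond the spread (0.38 ± 0.32 SE on the log2 scale; exact permutation adjusted p = 0.370). The gene model of Ciita overlaps that of Dexi, and the sources used here do not say whether counting used strand. Dexi moved the other way, from 621 ± 52.9 to 451 ± 71.5 normalized counts (SD, n = 5 each; log2 change -0.47 ± 0.13 SE, limma adjusted p = 0.0166).

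**Figure D3:**
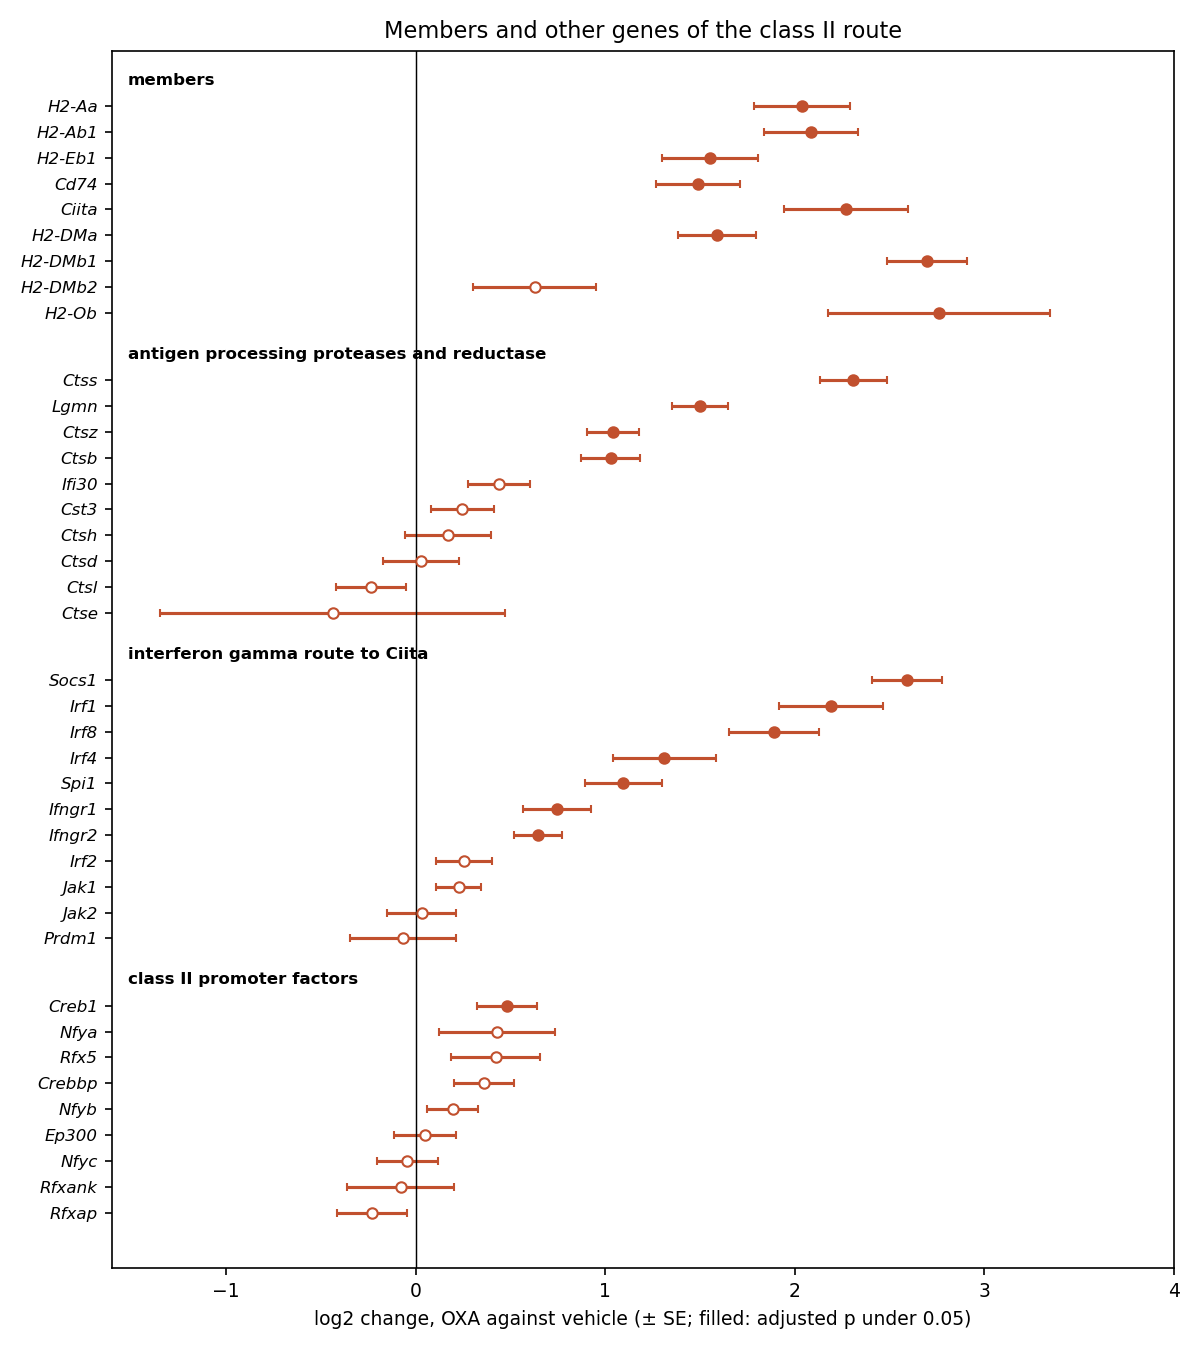
Log2 change (OXA against vehicle, ± SE) of the 9 tested class II genes and of 3 lists of genes around them; filled points have a limma adjusted p under 0.05. H2-DMb2 is the open point among the class II genes. Filled are 4 of 10 genes of the processing list, 7 of 11 of the interferon gamma route list and 1 of 9 promoter factors.

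The other genes of the route moved unevenly. Genes of enzymes that process antigen and trim the invariant chain were listed together with the cathepsin inhibitor gene Cst3. The median log2 change of the list was 0.34, against -0.01 over all tested genes, and 0 fell while 4 of 10 tested rose. They were the cysteine proteases Ctss (2.31 ± 0.18), the cathepsin known for the last cut of the invariant chain, Lgmn (1.50 ± 0.15), an asparaginyl endopeptidase, Ctsz (1.04 ± 0.14) and Ctsb (1.03 ± 0.16), each ± SE. Ctss went from 510.1 ± 102 to 2539 ± 534 normalized counts (SD, n = 5 each; limma adjusted p = 9.13e-07). Ifi30, the lysosomal thiol reductase, gave 0.44 ± 0.16 and did not pass (limma adjusted p = 0.0573).

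Of the factors that bind class II promoters with CIITA, 1 of 9 tested rose and 0 fell, with a median of 0.19. That gene was Creb1, which binds part of the X box (0.48 ± 0.16 SE; limma adjusted p = 0.0351), but it failed the test in 10 of 23 alternatives, including those that left out A1, A3, A5, C1, D3 or D4, with adjusted p up to 0.150. Rfx5, the large RFX subunit, gave 0.42 ± 0.23 (adjusted p = 0.192), the coactivator gene Crebbp 0.36 ± 0.16 (0.0986, and 0.0419 when scaled to library totals) and the NF-Y subunit gene Nfyb 0.19 ± 0.13 (0.293), all limma.

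The list for the interferon gamma route, which can induce Ciita, also holds factors of myeloid and B cells such as Irf8 and Spi1. Of its 11 tested genes 7 were higher and 0 lower, with a median of 0.74. That count is not one of interferon gamma pathway genes alone. The receptor genes Ifngr1 (0.74 ± 0.18) and Ifngr2 (0.65 ± 0.13) were called higher (log2 ± SE, limma adjusted p = 0.00638 and 0.00160). The kinase genes Jak1 (0.23 ± 0.12) and Jak2 (0.03 ± 0.18) were not called (log2 ± SE, limma adjusted p = 0.164 and 0.914). Socs1, a feedback inhibitor, rose by 2.59 ± 0.18, Irf1 by 2.19 ± 0.27, the myeloid and B cell factor Irf8 by 1.89 ± 0.24 and the myeloid factor Spi1 by 1.096 ± 0.21 (log2 ± SE; limma adjusted p from 5.18e-07 to 0.00124). The ligand gene Ifng was under the filter, at 0.208 ± 0.465 normalized counts in vehicle and 2.40 ± 2.37 in OXA (SD, n = 5 each), and its groups overlapped.

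Genes that set how long class II stays at the surface went in both directions: 3 of 4 tested rose and 1 fell. March1, a ubiquitin ligase of dendritic and B cells that removes class II from the surface, rose by 1.97 ± 0.38 (SE; limma adjusted p = 0.00160). Its relative March8, found in epithelial and many other cells, fell by 0.67 ± 0.19 on the log2 scale, from 249 ± 40.1 to 160 ± 44.0 normalized counts (limma adjusted p = 0.0182). Il10ra, an interleukin-10 receptor chain, rose by 2.76 ± 0.38. Cd83, which opposes MARCH1, gave 1.58 ± 0.56 (limma adjusted p = 0.0474). In 12 of 22 alternatives it did not pass, including those that left out A2, A4, A5, C1, D1, D2 or D3.

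At the contact between a class II cell and a T cell, 8 of 10 tested genes rose and 1 fell, with a median of 2.08. Icos (3.05 ± 0.35), a T cell costimulatory receptor, rose and its ligand gene Icosl fell, from 44.3 ± 10.4 to 17.5 ± 4.41 normalized counts (-1.31 ± 0.27 SE; limma adjusted p = 0.00225). The PD-1 ligand genes Cd274 (2.35 ± 0.38) and Pdcd1lg2 (3.07 ± 0.68) rose as well, the latter from 0.194 to 11.2 normalized counts, so that it passed the filter through its OXA values, as did Ctla4. MHC class I moved with class II: H2-K1 (2.72 ± 0.33), B2m (2.53 ± 0.34) and H2-D1 (1.63 ± 0.22) were all higher (log2 ± SE; limma adjusted p from 4.06e-05 to 9.91e-05). The log2 ratio of class II chains to these class I genes differed by -0.50 ± 0.25 (OXA minus vehicle, SE; exact permutation adjusted p = 0.136), and the groups overlapped.

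Of the 10 genes, 8 lie in the class II region, between the outer ends of H2-Oa and H2-Eb1 (chr17:34092340-34316499). This stretch holds 19 genes of the table, of which 12 were tested. Of the 5 tested genes there that do not belong to the class II set, 4 rose: Psmb9 (3.13 ± 0.35) and Psmb8 (2.99 ± 0.22), immunoproteasome subunit genes, and Tap1 (2.62 ± 0.32) and Tap2 (2.23 ± 0.18), which move peptides to class I (log2 ± SE; limma adjusted p from 7.22e-07 to 4.42e-05). Brd2, a chromatin reader gene 151 kb from H2-Ab1, gave 0.32 ± 0.13 and did not pass (limma adjusted p = 0.0877; it passed without A5, adjusted p = 0.0430, and when scaled to library totals, 0.0215). H2-DMb2 and Brd2 were the tested genes of the stretch that were not called.

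**Figure D4:**
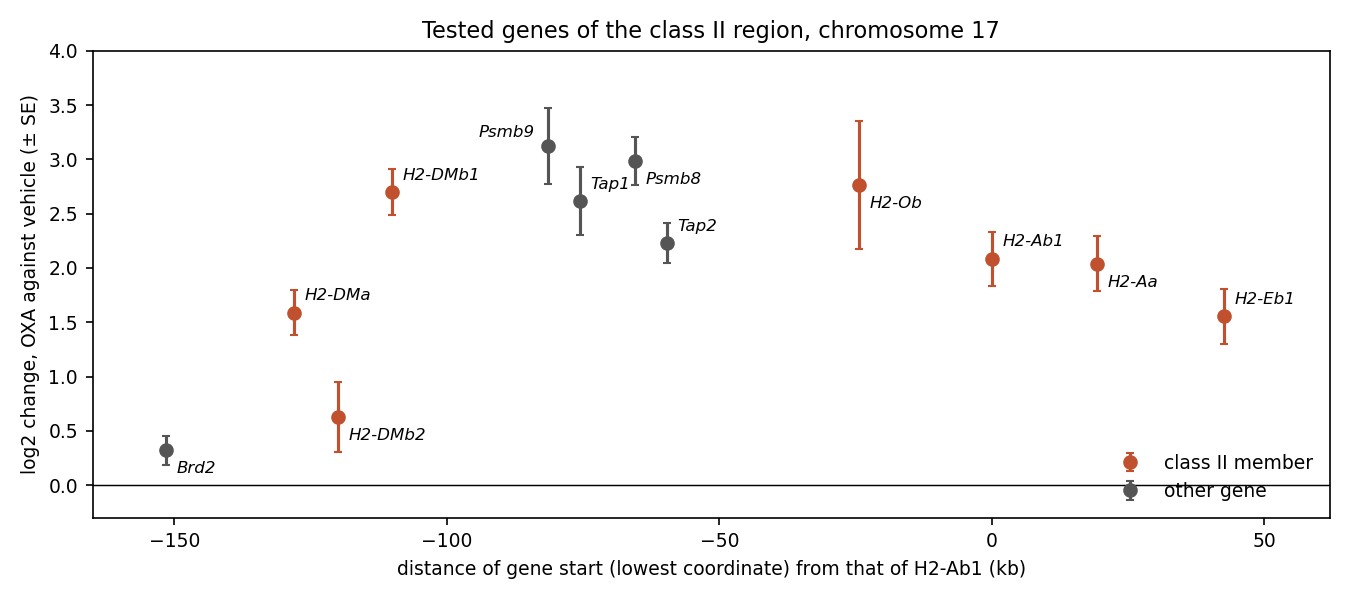
Log2 change (OXA against vehicle, ± SE) of the 12 tested genes of the class II region against the distance of each gene's lowest coordinate from that of H2-Ab1, in kb. Class II genes are red and the others grey; H2-DMb2 at 0.63 and Brd2 at 0.32 lie below the other genes, which run from 1.55 to 3.13.

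Most tested markers of leukocytes, macrophages, dendritic cells and T cells rose as well. All 6 pan-leukocyte genes rose (median 2.45; Laptm5 2.70 ± 0.20, Cd52 2.67 ± 0.22, Coro1a 2.32 ± 0.18, log2 ± SE). Of 12 monocyte and macrophage genes 10 rose (median 1.29), such as Ccr2 (3.19 ± 0.24), Mrc1 (1.35 ± 0.22) and C1qb (1.37 ± 0.22). Their summed level ran from 3074 to 5418 normalized counts in vehicle and from 6389 to 12492 in OXA.

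Of 11 dendritic and Langerhans cell genes, 10 were tested and 6 rose (median 1.58), with Ccr7 at 3.77 ± 0.55, Flt3 at 2.91 ± 0.57 and Itgax at 1.80 ± 0.23 (log2 ± SE). Ccr7, Flt3 and Clec9a passed the filter through their OXA values (vehicle means 1.57, 3.47 and 0.506 normalized counts), so their calls add no support. Their sum was 90.4 to 141 in vehicle and 274 to 398 in OXA. Cd207, which encodes langerin of Langerhans cells, was under the filter and not tested, at 5.11 ± 2.83 normalized counts in vehicle and 0.192 ± 0.429 in OXA (SD, n = 5 each). Of 8 T cell genes 6 rose (median 2.104), among them Lck, Trbc2 and Cd2, while Cd3e and Cd3g passed the filter through their OXA values.

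B cell markers were low and uneven. Of 10 genes 4 were tested and 3 rose: Cd79a (2.85 ± 0.84), Cd79b (2.33 ± 0.72) and Blk (2.63 ± 0.84; log2 ± SE, limma adjusted p = 0.0198, 0.0249 and 0.0302). All 3 passed the filter through their OXA values (vehicle means 3.56, 1.46 and 0.726 normalized counts). Each call was lost without A3, D3 or D4 (adjusted p from 0.0508 to 0.0750). Their sum overlapped, at 1.43 to 28.5 in vehicle and 21.7 to 217 in OXA, and Pax5 had 0 reads in every vehicle library. D3 had the highest B cell sum. None of 5 eosinophil genes passed the filter, and their sum was 0 to 2.60 in vehicle and 3.55 to 27.1 in OXA. All 7 esophageal epithelium genes passed the filter, as the tissue label would have it. Of them 3 fell and 1, Krt14, rose, by 2.18 ± 0.25 (log2 ± SE), with a list median of -0.83. Krt13, Krt5 and Trp63 were not called. Krt4 and Krt13 made up most of the list's sum, with vehicle means of 399540 and 306900 normalized counts in a mean sum of 738490. Of 12 skeletal muscle genes 3 fell and none rose (median -0.52). Elsewhere 2 of 5 fibroblast, 1 of 5 endothelium, 1 of 4 mast cell and basophil and 0 of 1 tested lymph node stroma genes rose and none fell. The part of these cells in the class II rise was not tested.

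**Figure D5:**
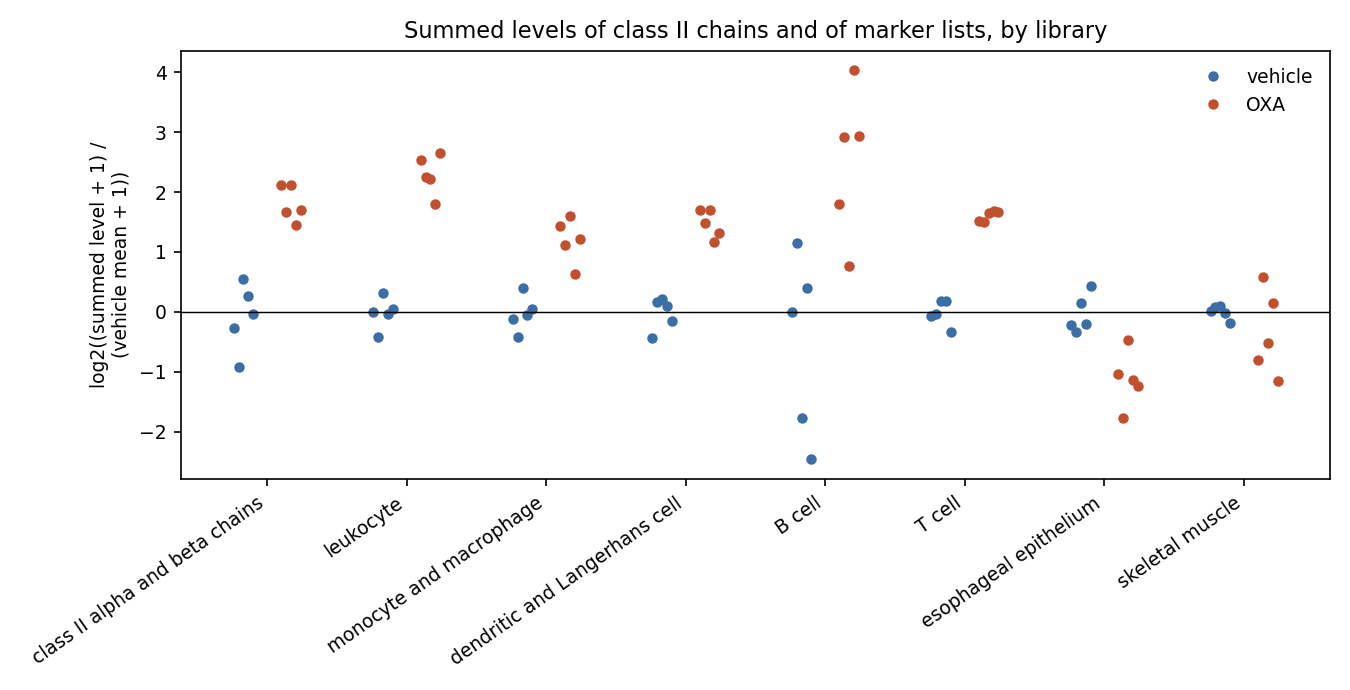
Summed level of the 3 class II chain genes and of 7 marker lists in each library, as log2 of (sum + 1) over (vehicle mean + 1), for vehicle (blue) and OXA (red). The chains, leukocyte, macrophage, dendritic and T cell sums are higher in every OXA library, the B cell and skeletal muscle sums overlap, and the epithelium sum is lower in every OXA library. The epithelium sum is mostly Krt4 and Krt13.

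Set against the macrophage sum of the same library, the chains were at a log2 ratio of 0.73, 0.39, 1.04, 1.21 and 0.80 in A1 to A5 and 1.57, 1.44, 1.40, 1.70 and 1.37 in C1 and D1 to D4. Every OXA library had more chain signal for its macrophage markers than every vehicle library (0.66 ± 0.15 SE; exact permutation adjusted p = 0.0238). Against Ptprc, the CD45 gene of all leukocytes, the chains moved by -0.70 ± 0.42 with overlapping groups (exact permutation adjusted p = 0.214). Against the dendritic list the difference was 0.40 ± 0.26 (exact permutation adjusted p = 0.0794) and against the B cell list -1.14 ± 1.09 (exact permutation adjusted p = 0.381). The DM genes against the chains gave 0.37 ± 0.14 (exact permutation adjusted p = 0.0762). The chains rose more than the macrophage sum, while no difference from the other 3 cell references passed. That sum weighs genes by level. Its largest parts were C1qb, C1qc and Lyz2, with OXA means of 2387, 2499 and 2526 normalized counts in a mean sum of 9690. They rose by 1.37, 1.05 and 1.26 (log2), against a list median of 1.29 and 3.19 for Ccr2. The ratio calls that passed, here and for H2-Eb1, Cd74 and H2-DMb2, rest on the most extreme assignment of libraries. None passed with medians in place of means (exact adjusted p = 0.0952) or without the shallow A5, D2 and D4 (exact adjusted p from 0.0857 to 0.114). Neither setting had much room to pass over 12 ratios. With medians, several assignments tie at the largest difference, and without those libraries only 35 assignments exist. These failures therefore do not decide whether the calls hold.

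Libraries of the same group differed together. After each group mean was subtracted, the average of H2-Aa, H2-Ab1, H2-Eb1 and Cd74 ran from -0.79 (A2) to 0.60 (A3) in vehicle and from -0.34 (D3) to 0.32 (C1) in OXA, on the log2 scale. H2-DMa followed that average with a Pearson r of 0.94 over the 10 libraries, H2-DMb1 with 0.79, Ciita with 0.50, H2-DMb2 with 0.11 and H2-Ob with -0.65. These are descriptions, since all points share a library's depth and composition. Among protein-coding genes outside the set, the closest were Clec4a2, a dendritic and myeloid lectin receptor gene (r = 0.943), the lysosomal phospholipase gene Pla2g15 (0.938), the epithelial gene Sprr2h (0.930), Prrg2 (0.915), Slamf9 (0.915), the leukocyte surface gene Cd48 (0.909), Chil1 (0.900) and the acid ceramidase gene Asah1 (0.899). They had the highest r of the many genes searched, over only 10 libraries. Values of this size can come from such a search alone, and no p was computed. Of these 8, Prrg2 (0.11 ± 0.14) and Asah1 (-0.10 ± 0.22; 0.025 when scaled to library totals) did not differ between the groups beyond their error, and the other 6 rose, Sprr2h by 6.85 ± 0.54 (log2 ± SE).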

How the data were processed

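RNA of 10 esophagus samples was profiled by CEL-Seq, which reads transcript 3' ends, per the labels' protocols. The submitters' processing notes name, with no role or order, the build GRCm38 and DESeq2 1.18.1, HTSeq 0.11.2, TopHat2 2.1.0, Bowtie2 2.2.6, cutadapt 1.10, Trim Galore and FastQC 0.11.5. The deposited signal values are gene counts scaled by library: 100% of values were whole multiples of 1 step per library (within 0.006 normalized counts), and dividing by it recovered reads. Protein-coding gene models mostly (92.7% of 20936) reach 300 bases past their GENCODE M21 3' end, and the coordinates given are the table's. The sources used here do not say whether molecular identifiers were counted.

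Values were tested with limma 3.58.1 (trend) in R 4.3.3 on log2(value + 1) for genes whose mean over all 10 libraries reached 5. edgeR 4.0.16 and DESeq2 1.42.0 on recovered reads, other scalings, filters and pseudocounts, a skeletal muscle covariate and omission of libraries were alternatives. Ratios, read shares and H2-Oa used exact two-sided permutation tests over 252 assignments. On simulated counts for 14712 genes, the comparison of OXA with vehicle recovered 6.12% of 1.5-fold, 40% of 2-fold, 84% of 4-fold and 96% of 8-fold changes, with 7 of 120 calls false. Only 49 or 50 genes were changed at each fold, far fewer than were called in the data, so these rates need not hold for the data. The genes and lists were chosen with earlier results of these data known, and 1 gene of the interferon gamma route list is not reported here. Named are all 10 class II genes, up to 4 genes of smallest p per pathway list, the region's tested genes, the 8 closest in pattern and up to 3 genes per immune marker list. Ifi30, Ifng, Dexi, Cd207, Pax5, Cst3, Ifngr1, Ifngr2, Jak1, Jak2, C1qc, Lyz2, Clec9a, Ctla4, Cd3e and Cd3g were named after their values were seen. So were the epithelial genes Krt4, Krt5, Krt13, Krt14 and Trp63.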

Additional observations from a re-analysis of the deposited data

Results flagged for a closer look

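Within-group outliers were sought in 44 groups of 5 values, and 2 stood apart by Dixon's criterion, where chance alone gives about 1 in 20. The log2 ratio of the DO genes to the DM genes in vehicle libraries was lowest in A3, at -7.54. A3 had 0 reads of both H2-Oa and H2-Ob, so the added 1 alone was its numerator. The log2 ratio of the class II chains to the dendritic markers in vehicle libraries was lowest in A2, at 4.87. A2 had the lowest chain sum of the vehicle libraries (4029 normalized counts), with a dendritic sum of 136 that lay within the vehicle range.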

How the results depend on the processing

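The number of class II genes called higher was 7 to 9 over the 23 alternatives, and 0 were called lower in any. It was 7 with a mean of at least 20, which removes H2-Ob and H2-DMb2 from the test, and 9 with a mean of at least 1 (H2-Oa enters) or limma without trend (H2-DMb2). The 8 called genes kept their calls wherever they were tested, H2-Ob with an adjusted p of up to 0.0343. With medians in place of means the differences in log2 ratio were -0.47 for H2-Eb1 to H2-Ab1, -0.37 for Cd74 to chains, -1.88 for H2-DMb2 to H2-DMb1 and 0.64 for chains to macrophage markers, each with an exact adjusted p of 0.0952, and 0.017 for H2-Aa to H2-Ab1 and -0.18 for DO to DM. Without A5, D2 and D4 the first 4 were -0.54, -0.31, -2.05 (exact adjusted p = 0.0857) and 0.73 (0.114), where 35 assignments limit the p. With medians, assignments that tie at the largest difference limit the p too. DO to DM was -0.39 with a pseudocount of 5 and ran from -0.38 to 0.68 when 1 library was left out. Asah1 was 0.025 when scaled to library totals. Over the same omissions chains to dendritic markers ran from 0.14 to 0.50 (exact adjusted p = 0.0190 without A3), chains to class I from -0.66 to -0.32 (0.0381 without A4), DM to chains from 0.30 to 0.45 (0.0190 without A5) and the H2-Oa difference from 3.70 to 5.13 normalized counts. The cause of these changes was not tested. No paired analysis was made because the sources used here do not say that any vehicle and OXA libraries form pairs. Depth limits H2-Oa, H2-Ob and H2-DMb2, which had under 50 reads in every library.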
